A study of Mus musculus with 4 samples.

Results

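The upper-layer neuron transcription factors examined here were the POU domain genes Pou3f1, Pou3f2 and Pou3f3, the CUT homeobox genes Cux1 and Cux2, the nuclear receptor gene Rorb and the MADS box gene Mef2c. They were picked by gene name, with earlier results of these data known, and are 7 of the 26433 genes in the deposited count table. RNA was sequenced from E15 cortex, which the methods describe as telencephalic tissue, of WT mice and of their cKI f/+ littermates, all labelled C57BL/6, although founders of the floxed line had been bred with B6D2F2 mice before the cross to Nestin-Cre. The cKI f/+ mice carried 1 copy of human SERPINA3 with a FLAG tag, placed in the Rosa26 locus behind a CAG promoter and a floxed STOP cassette, together with Nestin-Cre, which is active in neural progenitors and leaves the transgene on in their neuronal and glial progeny. The table names the 2 cKI f/+ libraries KI2 and KI3, and the 2 WT libraries WT1 and WT3. The labels speak of triplicates and do not say whether a library came from 1 embryo, so the p-values given here measure the spread between these libraries, which may be technical. The labels do not say whether the WT embryos carried Nestin-Cre or the floxed allele.

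Neurons of the cerebral cortex are born from radial glia and intermediate progenitors, and those of the deep layers are born before those of the upper layers. Pou3f2 (Brn2) and Pou3f3 (Brn1) are closely related POU factors that act together in the production, migration and positioning of upper-layer neurons, and Pou3f1 (Oct6, SCIP) is a relative that also acts in Schwann cells. Cux1 and Cux2 mark layers II to IV and act in dendrite branching and spine formation. Rorb marks layer IV, where it takes part in the clustering of neurons in the sensory cortex. Mef2c is an activity-dependent factor that acts in neuronal differentiation, survival and synapse number.

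The 7 genes together collected 20688 reads in KI2 and 19209 in KI3, against 23955 in WT1 and 20945 in WT3, of library totals between 17423512 and 18119444 counted reads. Scaled to library size, this was 1166 and 1060 counts-per-million (CPM) for cKI f/+, against 1360 and 1202 CPM for WT. At this depth 3 counts, taken as the limit of detection, correspond to between 0.166 and 0.172 CPM, which covers counting error only, and every member lay far above it. The table as a whole was tested for cKI f/+ against WT with edgeR's quasi-likelihood test, in which 15786 genes had enough reads, the 7 members among them. A gene was called at a Benjamini-Hochberg adjusted p under 0.05 over all tested genes. Fold changes are given as log2 of cKI f/+ over WT with the standard error (SE) and a 95% interval. The median log2 fold change of all tested genes was 0.0043. The libraries also differed in sex. KI2 and KI3 held 13223 and 11882 reads of Xist, transcribed from the inactive X chromosome, against 5 in each WT library, and 0 or 1 read of each of the chromosome Y genes Kdm5d, Ddx3y, Eif2s3y and Uty, which had 214 to 1149 reads in WT1 and WT3. Sex and genotype therefore cannot be told apart for any gene here. In bulk tissue, fewer cells of a type and less RNA per cell cannot be told apart.

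The proximal promoters of 4 of the factors are shown first, because these were the 4 members with the lowest p-values, a choice made after the values were seen. Each is the 250 bases before the annotated RefSeq start, read 5′ to 3′ on the gene's own strand in build GRCm38.p6, and capitals mark every CCAAT pentamer, the core of the CCAAT box, or its reverse complement ATTGG. A RefSeq promoter was matched for 6 of the 7 members, the exception being Pou3f1. The promoter table used holds 2 starts each for Rorb and Cux2, and the promoter shown is that of the outer start. The outer Cux2 start lies inside the annotated gene (chr5:121856366-122050102), so all bases shown for Cux2 lie within it. The promoters shown for Pou3f2, Pou3f3 and Rorb lie just outside their genes. The promoter of Pou3f2 lies on the minus strand at chr4:22488367-22488616, that of Pou3f3 on the plus strand at chr1:42695518-42695767, that of Rorb on the minus strand at chr19:19111197-19111446 and that of Cux2 on the minus strand at chr5:122049852-122050101.
Pou3f2: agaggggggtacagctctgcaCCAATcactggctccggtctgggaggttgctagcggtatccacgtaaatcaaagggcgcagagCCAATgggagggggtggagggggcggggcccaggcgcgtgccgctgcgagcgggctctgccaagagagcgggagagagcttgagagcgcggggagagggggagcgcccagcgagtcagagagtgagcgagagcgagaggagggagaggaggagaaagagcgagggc
Pou3f3: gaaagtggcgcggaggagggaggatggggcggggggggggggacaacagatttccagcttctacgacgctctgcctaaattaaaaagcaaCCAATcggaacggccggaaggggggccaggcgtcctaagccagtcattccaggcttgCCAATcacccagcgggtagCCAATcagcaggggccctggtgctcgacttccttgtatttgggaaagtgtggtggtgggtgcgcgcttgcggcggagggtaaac
Rorb: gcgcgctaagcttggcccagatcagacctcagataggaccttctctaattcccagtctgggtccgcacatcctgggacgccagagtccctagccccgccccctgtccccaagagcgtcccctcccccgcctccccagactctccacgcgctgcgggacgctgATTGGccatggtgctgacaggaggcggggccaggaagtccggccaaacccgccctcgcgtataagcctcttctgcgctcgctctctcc
Cux2: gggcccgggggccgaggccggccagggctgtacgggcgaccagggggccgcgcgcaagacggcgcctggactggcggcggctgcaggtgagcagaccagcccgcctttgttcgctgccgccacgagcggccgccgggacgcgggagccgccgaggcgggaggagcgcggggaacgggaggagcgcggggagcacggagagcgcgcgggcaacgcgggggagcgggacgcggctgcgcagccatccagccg
The Pou3f3 promoter held 3 CCAAT pentamers, which began 160, 103 and 84 bases before the start, all on the coding strand. The Pou3f2 promoter held 2, which began 229 and 166 bases before the start, also on the coding strand. The outer Rorb promoter held 1, on the other strand, 88 bases before the start, and the outer Cux2 promoter held 0. The inner promoters of Rorb (chr19:19001118-19001367) and Cux2 (chr5:122047826-122048075), which are not shown, each held 0. Of 32851 mouse RefSeq promoters of this length, 33.8% held at least 1 such pentamer on either strand, 10.1% held at least 2 and 2.79% held at least 3. None of the marked pentamers overlapped the other motifs searched, which were the octamer ATGCAAAT, bound by POU factors and found in 1.6% of promoters, the TATA sequence TATAAA (12.4%) and the GC box GGGCGG (32.7%), each on both strands. The octamer was found in 0 of the member promoters in the table. The Pou3f2 and Pou3f3 promoters each held 1 GC box, the outer Rorb promoter held 2 and the inner one 0. The inner Cux2 promoter held 1 TATA sequence. The 4 promoters shown were rich in G and C, at 66.8% for Pou3f2, 60.8% for Pou3f3, 66% for Rorb and 80% for Cux2, against a median of 52.4% over all promoters. The inner promoters had less, at 39.2% for Rorb, below that median, and 55.2% for Cux2. These matches are descriptions of the letters and do not show binding.

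The factor with the largest difference between the genotypes among the 7 was Pou3f2. Pou3f2 (ENSMUSG00000095139, chr4:22482780-22488366 in GRCm38, minus strand, 1 exon of 5587 bases) had 1781 reads in KI2 and 1382 in KI3, against 2556 in WT1 and 2045 in WT3, or 100.4, 76.3, 145.1 and 117.4 CPM. Both cKI f/+ libraries lay below both WT libraries, and the higher cKI f/+ library and the lower WT library were the closest pair. The means were 88.3 ± 17.1 CPM in cKI f/+ and 131.2 ± 19.6 CPM in WT (SD, n = 2 each). The log2 fold change was -0.56 (SE 0.14, interval -0.88 to -0.25), a difference of -32.4% with an interval from -45.5% to -16.1%. The unadjusted p of edgeR's quasi-likelihood test was 0.00257 and the adjusted p was 0.663, so Pou3f2 was not called. It ranked 61 among the 15786 tested genes by p-value. The libraries of each genotype also differed among themselves, KI3 from KI2 by -0.40 and WT3 from WT1 by -0.31 on the log2 scale.

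Pou3f3 differed less. Pou3f3 (ENSMUSG00000045515, chr1:42695768-42703176, plus strand, 1 exon of 7409 bases) was the most abundant of the 7, with 10399 reads in KI2 and 9769 in KI3, against 12065 in WT1 and 10443 in WT3, or 586.3, 539.1, 684.9 and 599.4 CPM. The cKI f/+ libraries lay below the WT libraries, but KI2 and WT3 were close to each other. The means were 562.7 ± 33.3 CPM in cKI f/+ and 642.1 ± 60.5 CPM in WT (SD, n = 2 each), and the log2 fold change was -0.18 (SE 0.09, interval -0.38 to 0.01; edgeR's quasi-likelihood test, adjusted p = 0.969).

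Pou3f1 showed the smallest difference. Pou3f1 (ENSMUSG00000090125, chr4:124656807-124660655, plus strand, 1 exon of 3849 bases) had 1001 reads in KI2 and 1020 in KI3, against 1046 in WT1 and 1004 in WT3, or 56.4, 56.3, 59.4 and 57.6 CPM. The 4 values were almost level, with both cKI f/+ libraries just below both WT libraries. The log2 fold change was -0.05 (SE 0.08), and its interval from -0.24 to 0.14, or -15.2% to 10.3%, bounds the change these libraries allow. The antisense gene Gm2164 shares 330 bases of exon with Pou3f1, and it had only 12, 8, 10 and 10 reads in KI2, KI3, WT1 and WT3.

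Of the CUT factors, Cux2 was lower in both cKI f/+ libraries and Cux1 was not. Cux2 (ENSMUSG00000042589, chr5:121856366-122050102, minus strand, 30 exon blocks) had 2366 reads in KI2 and 2228 in KI3, against 2750 in WT1 and 2457 in WT3, or 133.4, 123.0, 156.1 and 141.0 CPM. The groups did not overlap. The means were 128.2 ± 7.38 CPM in cKI f/+ and 148.6 ± 10.7 CPM in WT (SD, n = 2 each), and the log2 fold change was -0.21 (SE 0.09, interval -0.40 to -0.01; edgeR's quasi-likelihood test, unadjusted p = 0.0386, adjusted p = 0.969). Cux1 (ENSMUSG00000029705, chr5:136248135-136567490, minus strand, 34 exon blocks) had 3264 reads in KI2 and 3345 in KI3, against 3685 in WT1 and 3173 in WT3, or 184.0, 184.6, 209.2 and 182.1 CPM. Here the groups overlapped, since WT3 was the lowest of the 4 and WT1 alone stood higher. The log2 fold change of Cux1 was -0.08 (SE 0.09, interval -0.28 to 0.12). A gene-level count of Cux1 also takes in reads of CASP, a Golgi protein made from the same gene, and the antisense gene Gm16599 shares 394 bases of exon with it.

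Rorb was the least abundant factor and the one with the largest difference after Pou3f2. Rorb (ENSMUSG00000036192, chr19:18930605-19111196, minus strand, 12 exon blocks) had 256 reads in KI2 and 199 in KI3, against 305 in WT1 and 292 in WT3, or 14.4, 11.0, 17.3 and 16.8 CPM. The WT libraries were nearly level and both cKI f/+ libraries lay below them, KI3 the lower. The means were 12.7 ± 2.44 CPM in cKI f/+ and 17.0 ± 0.393 CPM in WT (SD, n = 2 each). The log2 fold change was -0.42 (SE 0.16, interval -0.77 to -0.06; edgeR's quasi-likelihood test, unadjusted p = 0.0258, adjusted p = 0.969).

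Mef2c (ENSMUSG00000005583, chr13:83504034-83667080, plus strand, 21 exon blocks) gave overlapping groups, with 1621 reads in KI2 and 1266 in KI3, against 1548 in WT1 and 1531 in WT3, or 91.4, 69.9, 87.9 and 87.9 CPM. KI2 was the highest library and KI3 the lowest, on either side of the nearly equal WT libraries. The log2 fold change was -0.12 (SE 0.12, interval -0.39 to 0.15). KI3 lay 0.39 below KI2 on the log2 scale, about as large a gap within cKI f/+ as those of Pou3f2 and Rorb.

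**Figure D1:**
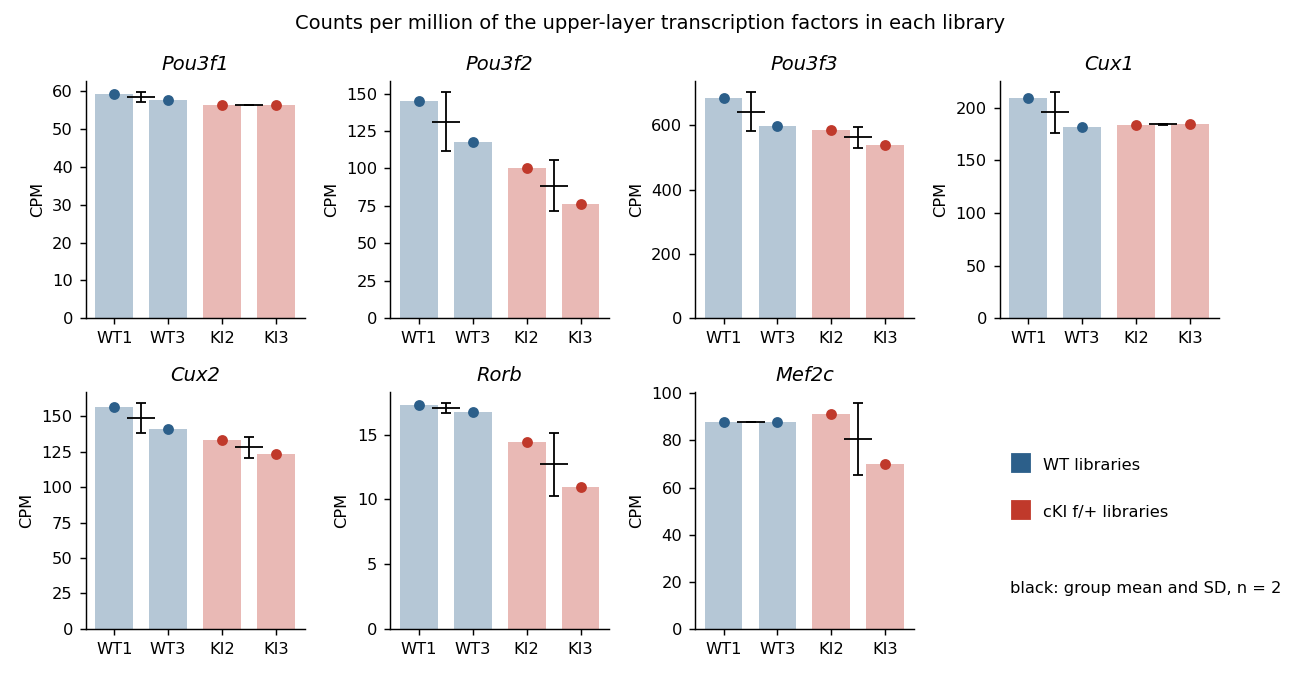
Level in CPM of the 7 factors, 1 panel a gene with its own axis from 0, in the WT libraries (blue) and the cKI f/+ libraries (red), with the group mean and SD in black (n = 2). Pou3f2, Pou3f3, Pou3f1, Cux2 and Rorb have both red bars below both blue bars, and Cux1 and Mef2c do not.

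As a group, all 7 factors had a log2 fold change below 0, and 5 of the 7 had both cKI f/+ libraries below both WT libraries. Among all tested genes 48.8% had a log2 fold change below 0 and 18.0% had both cKI f/+ libraries below both WT libraries. The median log2 fold change of the 7 was -0.18. With edgeR's quasi-likelihood test 0 of the 7 were called, where 0.120% of tested genes were called in either direction, 19 genes in all. With DESeq2 0 of the 7 were called as well, and with edgeR's likelihood ratio test 1 was, Pou3f2, at an adjusted p of 0.0445. At an unadjusted p under 0.05, 3 of the 7 were lower in cKI f/+ (Pou3f2, Rorb and Cux2), beside 2.34% of all tested genes that were lower at this level. The 7 genes share libraries, so their differences are not independent of each other. With 2 libraries against 2, an exact permutation test of a single gene, two-sided, cannot give a p below 0.333.

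The sizes of the fold changes depended on single libraries. Each fit without a library leaves 1 library in a genotype, so only fold changes are given. Pou3f2 was at -0.79 without KI2 and at -0.71 without WT3. Without KI3 the value for Pou3f2 was -0.38, and without WT1 it was -0.40. The difference of Pou3f2 was thus larger without either of the libraries nearest to the other genotype and smaller without either of those farthest from it. Rorb ranged from -0.64 without KI2 to -0.23 without KI3. Mef2c was at 0.063 without KI3, and Cux1 was at 0.023 without WT1, so neither kept a sign below 0 in every subset. Pou3f1, Pou3f2, Pou3f3, Cux2 and Rorb were below 0 in every subset. This follows from their groups not overlapping and adds nothing to it.

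**Figure D2:**
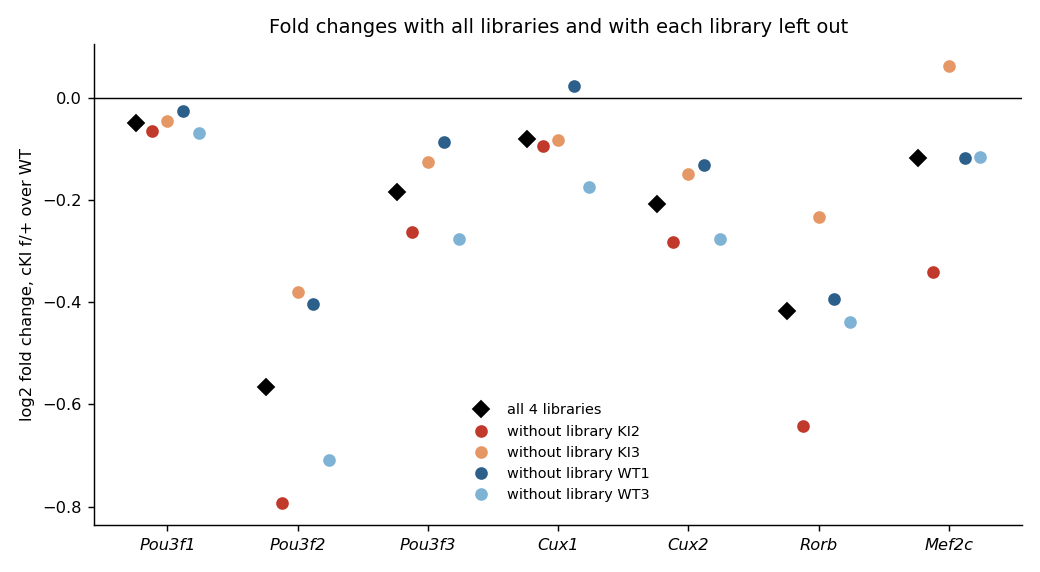
Log2 fold change of each factor, cKI f/+ over WT, with all 4 libraries (black diamonds) and with each library left out in turn (coloured points). Pou3f2 spans -0.79 to -0.38, and Cux1 and Mef2c each have 1 point above 0.

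Compared per length of exon, the factors differed widely in level. As CPM divided by the kilobases of merged exon (RPKM), Pou3f3 had 79.1 in KI2 and 72.8 in KI3, against 92.4 in WT1 and 80.9 in WT3, a mean of 81.3. Pou3f2 followed with a mean RPKM of 19.7, Pou3f1 with 14.9, Cux2 with 13.7, Cux1 with 9.49, Mef2c with 5.36 and Rorb with 1.34. In this order Pou3f2 and Pou3f1 overlapped over the 4 libraries, as did Pou3f1 and Cux2, so these neighbours did not differ beyond their spread. Pou3f3 stood 4.14-fold above Pou3f2 and Mef2c stood 3.99-fold above Rorb in mean RPKM. The POU genes each have 1 annotated transcript with a single exon, so their merged exons and longest transcript are equally long. The merged exons of Cux1 (14 transcripts), Cux2 (11), Rorb (5) and Mef2c (31) instead exceed any single transcript. With the length of the longest transcript instead, the mean RPKM was 14.8 for Cux1, 15.8 for Cux2 and 13.4 for Mef2c, beside 14.9 for Pou3f1, so that the middle of the order depends on the length used while Pou3f3 was highest and Rorb lowest with either.

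**Figure D3:**
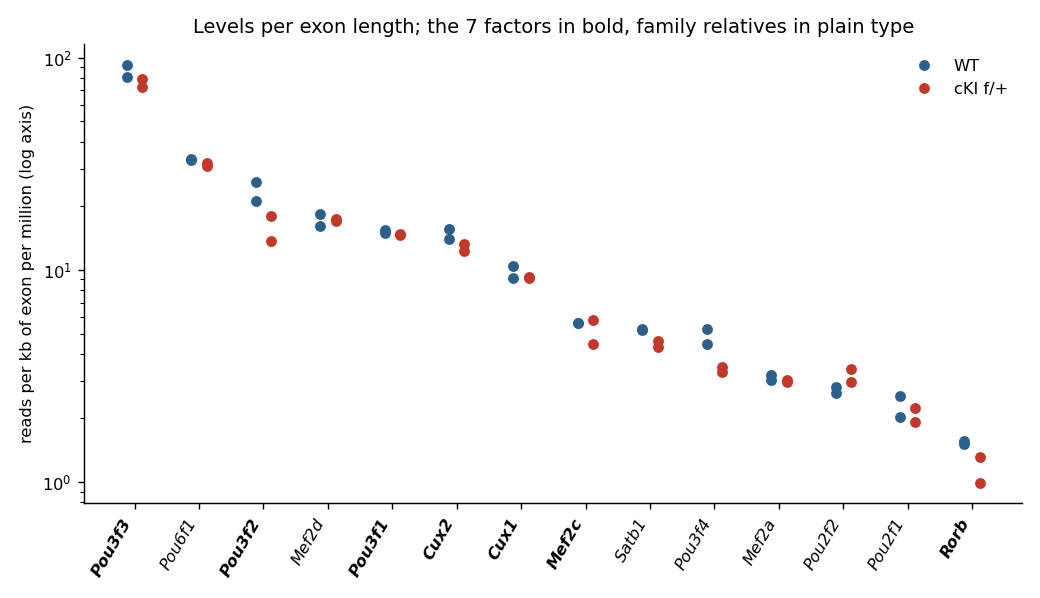
Level per exon length of the 7 factors (bold names) and of relatives from their gene families, in RPKM on a log axis, ordered by mean, with 1 point a library (WT blue, cKI f/+ red). Among the genes drawn, Pou3f3 lies highest, near 80, and Rorb lowest, between 0.992 and 1.56. Relatives at lower levels, such as Pou4f1, Onecut2 and Rora, are not drawn.

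Among the 3 POU factors, Pou3f2 made up a smaller part in the cKI f/+ libraries. It accounted for 16.1% of their summed RPKM in KI2 and 13.5% in KI3, against 19.4% in WT1 and 18.0% in WT3, with no overlap between the genotypes. Pou3f3 accounted for 70.8% and 72.0% in cKI f/+ and 69.1% and 69.2% in WT. The ratio of Pou3f2 to Pou3f3 was 0.227 and 0.188 in cKI f/+ and 0.281 and 0.260 in WT, with means of 0.207 ± 0.0279 and 0.27 ± 0.015 (SD, n = 2 each; exact permutation test, two-sided, p = 0.333, the smallest this design can give). The ratio of Cux2 to Cux1 was 1.44 and 1.32 in cKI f/+ and 1.48 and 1.54 in WT (exact permutation test, two-sided, p = 0.333).

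The closest relatives of the factors were read in the same fit. Pou3f4 (Brn4), the fourth gene of the Pou3f class, which lies on chromosome X and acts in the developing striatum, inner ear and hypothalamus, had 181 reads in KI2 and 174 in KI3, against 270 in WT1 and 229 in WT3. Both cKI f/+ libraries were lower, and the log2 fold change was -0.52 (SE 0.15; edgeR's quasi-likelihood test, unadjusted p = 0.00715, adjusted p = 0.881). Of the other POU genes tested, Pou6f1 was at -0.07, Pou2f1 at -0.12 and Pou2f2 at 0.24, and Pou4f1, with 11, 20, 7 and 4 reads, was at 1.44 (unadjusted p = 0.0298). Satb1, a CUT domain factor that organises chromatin, had 1554 reads in KI2 and 1493 in KI3, against 1744 in WT1 and 1739 in WT3. Both cKI f/+ libraries were lower, and the log2 fold change of Satb1 was -0.22 (unadjusted p = 0.0198). Onecut2 was at 0.16, Mef2a at -0.05, Mef2d at 0.01 and Rora at 0.25. None of these relatives was called by edgeR's quasi-likelihood test, and 2 of them, Pou3f4 and Satb1, were lower at an unadjusted p under 0.05.

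**Figure D4:**
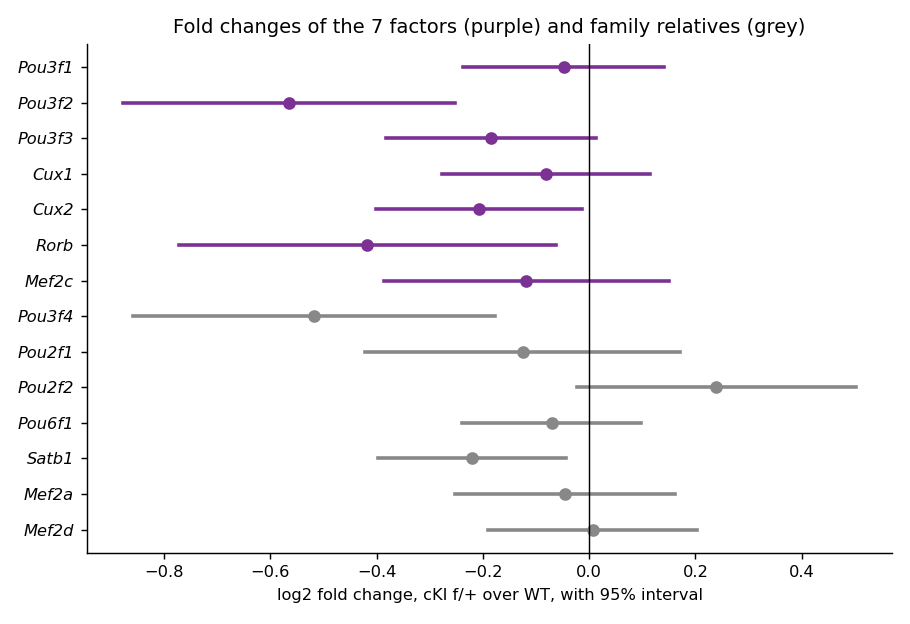
Log2 fold change, cKI f/+ over WT, of the 7 factors (purple) and of the more abundant tested relatives (grey), with 95% intervals as bars. Pou4f1, Onecut2 and Rora, tested at lower levels, are not drawn. Each had a fold change above 0, and the interval of Pou4f1 (0.18 to 2.71) lies wholly above 0. The intervals of Pou3f2, Cux2 and Rorb and those of the relatives Pou3f4 and Satb1 lie wholly below 0, before adjustment for the number of genes tested.

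Genes known to act downstream of the factors were read in the same fit, and the only call among them was Xlr3b, listed for the Cux factors. Of the 5 genes listed for Pou3f2 and Pou3f3, 0 were called and 0 had an unadjusted p under 0.05. Of all 15786 tested genes, 19 were called and 726 had an unadjusted p under 0.05, so counts of 0 in lists this short say little. The Notch ligand gene Dll1, which the POU factors activate, had 1342 reads in KI2 and 1489 in KI3, against 1394 in WT1 and 1280 in WT3 (log2 fold change 0.05). Eomes (Tbr2), the marker of intermediate progenitors, had 6164, 6292, 5985 and 5538 reads in the same order (0.08). The migration genes Dab1, of the Reelin pathway, Cdk5r1 and Cdk5r2, activators of Cdk5, were at -0.13, -0.01 and 0.30. Of 4 genes listed for Mef2c, 0 were called and 0 had an unadjusted p under 0.05, with Nr4a1 at -0.04, Arc at 0.24, Jun at 0.05 and Bdnf at 0.07, the last from 3 to 25 reads a library.

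The genes listed for the Cux factors were Xlr3b and Xlr4b, X-linked chromatin genes of a multicopy family that Cux1 and Cux2 are known to repress in upper-layer neurons. Xlr3b (chrX:73192207-73202930) had 38 reads in KI2 and 23 in KI3, against 247 in WT1 and 122 in WT3. Both cKI f/+ libraries were several times lower, and Xlr3b fell in cKI f/+ with a log2 fold change of -2.62 (SE 0.37, interval -3.45 to -1.78; edgeR's quasi-likelihood test, adjusted p = 0.0441), the 1 gene called among all the family and downstream lists. Its call was lost when all genes with at least 1 count were tested (adjusted p = 0.119) or the test was limited to genes that reached 10 counts in all 4 libraries (adjusted p = 0.0736). Xlr4b, with 1, 1, 8 and 18 reads, was too low to test. Reads of near-identical copies of this family may be split between genes, so the count of a single copy is uncertain. With a library left out, Xlr3b ranged from -3.05 to -2.03. Xlr3b is X-linked, and sex and genotype cannot be told apart here.

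The other genes of the upper-layer program lay on both sides of 0. Of 17 other upper-layer genes tested, 9 had a log2 fold change below 0 and the median was -0.02. With edgeR's quasi-likelihood test, its likelihood ratio test and DESeq2, 0 of them were called, and 2 had an unadjusted p under 0.05 in the first. Unc5d, a netrin receptor gene of migrating upper-layer neurons, was at -0.31 (edgeR's quasi-likelihood test, unadjusted p = 0.0114), and Kitl, the ligand of Kit, was at -0.31 (unadjusted p = 0.0402). Lhx2, a LIM homeobox gene of cortical progenitors and upper-layer neurons, was at 0.18 (unadjusted p = 0.0521). Of 16 deep-layer genes tested, 12 had a log2 fold change below 0 and the median was -0.08, with 0 called by each of the same tests and 3 at an unadjusted p under 0.05. Etv1, a marker of layer V, was at -0.44 (unadjusted p = 0.011), Foxp2, of layer VI, was at -0.39 (unadjusted p = 0.0169), and Ldb2 was at -0.30 (unadjusted p = 0.0182). Among all tested genes 48.8% had a log2 fold change below 0, 2.34% were lower at an unadjusted p under 0.05 and 0.120% were called. At that last share, 0 calls in lists of this length say little about them. The 7 factors were thus not alone in lying below 0, and the difference between these lists was not tested.

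The labelled tissue was checked against cell type markers, whose part in the values of the factors was not tested. Markers of neurons were abundant in every library, with a summed level of 6391 to 6895 CPM in cKI f/+ and 6743 to 7135 CPM in WT over 11 genes. Of these 11, 8 had a log2 fold change below 0 and the median was -0.08. The medians were 0.04 for 12 radial glia markers, 0.06 for 7 intermediate progenitor markers, 0.03 for 8 proliferation markers, 0.23 for 6 Cajal-Retzius markers, -0.19 for 14 ventral telencephalon markers, 0.23 for 3 thalamus markers, -0.08 for 7 endothelium markers, -0.14 for 7 microglia markers, -0.32 for 4 oligodendrocyte precursor markers and -0.38 for 7 blood genes. None of these was called with edgeR's quasi-likelihood test. Of the 14 ventral telencephalon markers, 11 were below 0, and 3 were lower and 1 higher at an unadjusted p under 0.05. Dlx2 was at -0.59, Six3 at -1.90 and Nkx2-1 at 1.94, the last from only 3 to 19 reads a library. Gsx2 had 2, 28, 29 and 40 reads in KI2, KI3, WT1 and WT3. In the same order Isl1 had 1, 30, 21 and 32 and Six3 had 5, 34, 31 and 112. Lhx6, with 1101, 919, 962 and 1044 reads, was not low in KI2. Whether the libraries differed in ventral tissue was not tested. All 6 Cajal-Retzius markers were above 0. All 7 blood genes, 3 of them at an unadjusted p under 0.05, and all 4 oligodendrocyte precursor markers were below 0, as the 7 factors were. Gbx2, a defining marker of the thalamus, had at most 1 read in any library.

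Markers of choroid plexus and meninges differed between the libraries, and their part in the values of the factors was not tested either. Of 5 choroid plexus markers, 4 were tested and all 4 were above 0, with 2 at an unadjusted p under 0.05 and 0 called. Their summed level was 8.74 and 63.9 CPM in KI2 and KI3 against 1.53 and 4.02 CPM in WT1 and WT3, and Ttr alone had 116, 956, 0 and 4 reads. Kl, another marker of the list, had at most 2 reads in any library. Of 7 meninges markers, 5 were tested, 4 of these were higher in cKI f/+ at an unadjusted p under 0.05 and 0 were called, with summed levels of 21.8 and 19.9 CPM in cKI f/+ and 9.99 and 11.5 CPM in WT. KI3, the library with the most choroid plexus reads, also had the lowest level of every factor but Cux1. Blood genes were lowest in KI3 as well, at 366.7 CPM against 489.9 to 522.8 CPM in the other libraries. Without KI3, 6 of the 7 factors had a log2 fold change below 0 and Mef2c was above it. For factors whose groups did not overlap, leaving out a library could not change the sign. Whether the tissue content of KI3 had a part in these values was not tested.

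**Figure D5:**
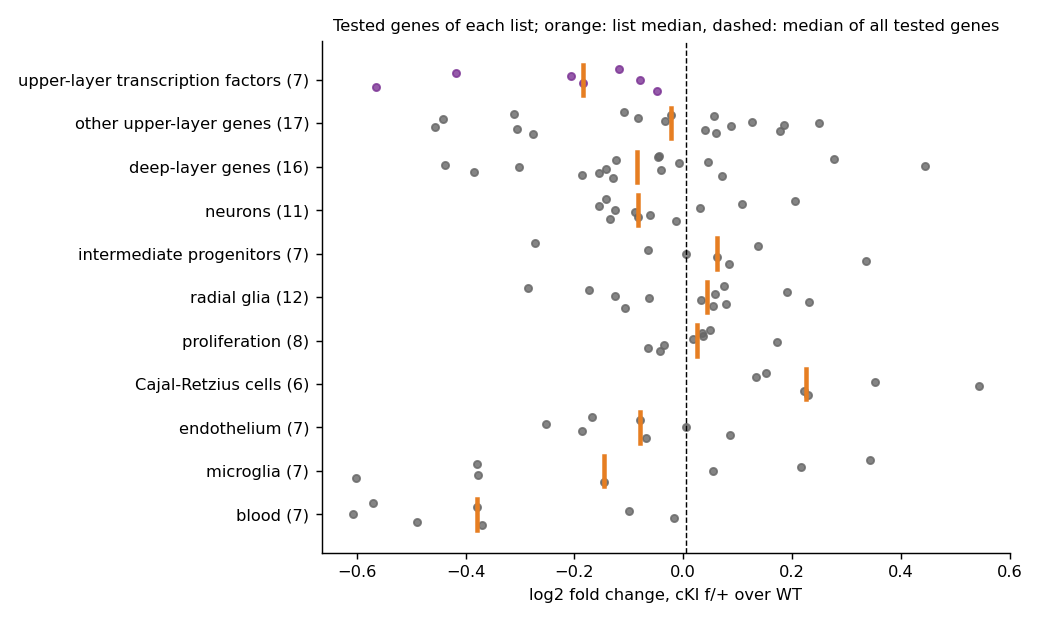
Log2 fold change, cKI f/+ over WT, of every tested gene of the factor list (purple) and of layer and cell type lists (grey), with the number of tested genes in brackets, list medians in orange and the median of all tested genes as a dashed line. The 7 factors all lie below 0 with a median of -0.18, and the 6 Cajal-Retzius markers all lie above 0, while the 7 blood genes also all lie below 0.

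Within 250 kb of the 7 genes the table holds 70 other genes, of which 45 were tested. Of these 45, 18 had a log2 fold change below 0, where 48.8% of all tested genes did. By edgeR's quasi-likelihood test 0 of the 45 were called and 0 had an unadjusted p under 0.05. Of all tested genes 0.120% were called, so 0 calls among so few genes say little about the neighbours. Next to Pou3f2, the noncoding gene Gm30731, 2182 bases away, had 56 reads in KI2 and 55 in KI3, against 76 in WT1 and 70 in WT3 and was at -0.42 (unadjusted p = 0.0916, adjusted p = 0.969), with both cKI f/+ libraries lower, as at Pou3f2 itself. Next to Pou3f3, the noncoding gene Pantr1, 926 bases away, had 2361, 2121, 2348 and 2233 reads in the same order and was at -0.06, with overlapping groups, unlike Pou3f3. Pantr2, 3885 bases from Pou3f3, was at 0.01. The noncoding gene C130071C03Rik, 54301 bases from Mef2c, was at -0.06, and Sh2b2, 1579 bases from Cux1, was at 0.06.

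The genes whose profile over the 4 libraries was nearest to that of each factor were listed among 10034 genes with a mean of at least 10 CPM, by the Euclidean distance between centred log2 CPM values. For Pou3f2 the nearest were Tmem181b-ps, at a distance of 0.102, and Zfp84, at 0.142, and 0 genes lay within 0.1. For Rorb the nearest were the glutamate receptor gene Gria2, at 0.0300, and Gm29260, at 0.0655, with 3 genes within 0.1. Those 2 factors had the fewest genes close to them. For Mef2c the nearest were Shtn1 and Zbtb38 with 60 genes within 0.1, for Pou3f3 Rai14 and Prdm15 with 238, for Cux2 Mettl8 and Alg1 with 239, for Cux1 Tor1aip1 and Rprd2 with 664, and for Pou3f1 Phlpp1 and Naa15 with 1598. A near profile over 4 libraries is a description only, and a factor whose values are almost level, such as Pou3f1, has many neighbours.

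The annotation in the table also ties some of the factors together. Pou3f2 and Pou3f3 share the term for radially oriented migration in the cerebral cortex, which 14 genes of the table carry, and that for division of forebrain ventricular zone progenitors, which only 3 carry. Pou3f1 and Pou3f2 share the terms for Schwann cell development (9 genes) and for myelination in the peripheral nervous system (14 genes). By sequence, the share of 31-base words in each factor's transcripts that occur in another gene ran from 0.0373% to 1.83%, the highest for Pou3f2, so few of their words are shared with other genes.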

How the data were processed

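For 4 libraries the authors deposited a table of unnormalized read counts by gene. The labels name TopHat2 2.0.12, Bowtie2 2.2.3, HTSeq 0.6.0 and build mm9 without their roles, while the table places its genes on GRCm38 (24485 of 26433 genes as in GENCODE M21, all 7 members included). The column names give a genotype but match no single sample label. The authors also deposited their own comparison, a signal column of mean normalized counts, a fold change as a ratio and as log2, and p-values, none of which was used. Library preparation strandedness is not given in the sources used here.

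edgeR 4.0.16 (R 4.3.3) was run on the counts with its expression filter, TMM normalization and the quasi-likelihood test, 2 cKI f/+ against 2 WT libraries, without covariates. The biological coefficient of variation was 8.72%. CPM used total counts, and RPKM the merged exon length in GENCODE M21. Alternatives were DESeq2 1.42.0, the likelihood ratio test, other normalizations and filters, chromosomes X and Y left out, and each library left out. The script was tested on simulated data. Genes were named by a rule, and not all that it covers are printed. It covers the members, their relatives and downstream genes, and neighbours within 250 kb. It also covers the 2 nearest profiles and the 3 tested genes with the lowest p of other lists. Xist, Ttr, Kl, Gbx2, Gsx2, Isl1, Lhx6 and the chromosome Y genes were named beyond it where counts called for them. The alternatives for Xlr3b were chosen after seeing the data. Members and lists were chosen with earlier results of these data known. The SERPINA3 transgene was not analysed here, so the genotype labels were not checked by it, and a few results for single genes are not reported here.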

Additional observations from a re-analysis of the deposited data

How the results depend on the processing

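Over the 84 values that 12 alternatives gave for the 7 factors, 82 were below 0. This count says little, because the alternatives that kept all libraries refit the same counts. For the 5 factors whose groups did not overlap, leaving out a library could not change the sign. With a library left out, Pou3f2 ranged from -0.79 to -0.38, Pou3f3 from -0.28 to -0.09, Pou3f1 from -0.07 to -0.03, Cux2 from -0.28 to -0.13, Rorb from -0.64 to -0.23, Cux1 from -0.18 to 0.023 and Mef2c from -0.34 to 0.063. With the likelihood ratio test Pou3f2 was called at -0.56 (adjusted p = 0.0445), the number of factors called was 1 and that of all genes was 54 rather than 19. The number of all genes called was 6 when each library had to reach 10 counts, 11 when chromosomes X and Y were left out, 726 at an unadjusted p under 0.05, and 46 to 71 with a library left out. The number of factors called was 0 to 1 with a library left out and 3 at an unadjusted p under 0.05, where 2 other upper-layer genes and 3 deep-layer genes passed. With the longest transcript as length, the mean RPKM was 14.8 for Cux1, 15.8 for Cux2 and 13.4 for Mef2c, a move that comes from the length itself. For the other moves the cause was not tested. No paired analysis was possible because fewer than 2 replicate numbers occur in the labels of both genotypes. With 2 libraries a genotype, differences of the size seen for Pou3f1, Pou3f3, Cux1 and Mef2c lie within the intervals that also hold 0.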
